A study of Mus musculus with 6 samples.

Results

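The troponins and tropomyosins are the calcium switch of the thin filament, and their 10 muscle genes on the array are described here: Tnnt1, Tnnt2 and Tnnt3 for troponin T, Tnni1 and Tnni2 for troponin I, Tnnc1 and Tnnc2 for troponin C, and Tpm1, Tpm2 and Tpm3 for tropomyosin. They were listed by name, with earlier results of these data known, and all 10 were among the 20906 genes tested. Total RNA of the gastrocnemius, a fast hindlimb muscle, was taken from 3 young mice at 13 weeks of age and 3 aged mice at 26 months of age, all of them males (C57BL/6J per the study's methods) with no treatment given in the labels, and each mouse was measured on 1 single-colour Agilent array. Age was the only difference between the groups that the labels give. The whole muscle was homogenised, so fewer cells of a type and less RNA per cell cannot be told apart. All levels below are log2 intensities relative to the 75th percentile of the array, and because each gene is read by probes of its own, levels are compared between mice and never between genes.

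Tropomyosin is a coiled coil that lies along the actin filament and covers the sites at which myosin binds. Troponin T anchors the troponin complex to tropomyosin, troponin I holds the filament in its blocked state, and troponin C binds calcium and releases the block. Slow and fast fibres build this switch from different genes. Tnnt1, Tnni1 and Tnnc1 encode the slow forms, with Tnnc1 and Tnnt2 also being the forms of the heart, whereas Tnnt3, Tnni2 and Tnnc2 encode the fast forms. Tpm1 is the leading tropomyosin of fast fibres and Tpm3 that of slow fibres, and Tpm2 is found in both. Fibre type is read in many studies from these isoforms, and the comparison of aged with young mice asks whether the slow and the fast set moved apart.

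The genes lie partly in pairs of a troponin I and a troponin T gene. In the annotation of GRCm38.p6, Tnni1 and Tnnt2 lie on chromosome 1 with 1 gene between them, and Tnni2 and Tnnt3 on chromosome 7 with 2 genes between them. Tnnt1 is the direct neighbour of Tnni3, the cardiac troponin I gene, also on chromosome 7. RefSeq promoter windows, from 250 bases before to 50 after an annotated start, matched 8 of the 10 genes with 11 windows. Those of the 3 slow genes whose profiles over the arrays lay closest to one another, and that of Tnnt2, the 1 gene that was higher in aged mice, are shown 5′ to 3′ on the strand of the gene, with E-boxes (letters CANNTG) and MCAT elements (letters CATTCC on either strand) in capitals. The Tnnt1 window is chr7:4515926-4516225 on the minus strand, and those of Tnni1 (chr1:135799171-135799470), Tpm3 (chr3:90072401-90072700) and Tnnt2 (chr1:135836084-135836383) are on the plus strand, each the first of 2 annotated starts for the last 3 genes.
Tnnt1: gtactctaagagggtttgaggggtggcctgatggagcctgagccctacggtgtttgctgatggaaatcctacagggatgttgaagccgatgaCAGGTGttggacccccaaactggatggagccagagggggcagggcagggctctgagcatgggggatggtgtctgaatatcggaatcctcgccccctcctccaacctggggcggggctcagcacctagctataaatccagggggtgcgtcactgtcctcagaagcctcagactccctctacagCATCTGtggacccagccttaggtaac
Tnni1: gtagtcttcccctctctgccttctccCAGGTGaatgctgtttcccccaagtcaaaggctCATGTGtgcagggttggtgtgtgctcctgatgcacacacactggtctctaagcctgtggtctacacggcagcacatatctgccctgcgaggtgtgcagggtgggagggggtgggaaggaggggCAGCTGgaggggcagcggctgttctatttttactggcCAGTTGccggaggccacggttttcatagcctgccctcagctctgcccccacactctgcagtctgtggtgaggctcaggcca
Tpm3: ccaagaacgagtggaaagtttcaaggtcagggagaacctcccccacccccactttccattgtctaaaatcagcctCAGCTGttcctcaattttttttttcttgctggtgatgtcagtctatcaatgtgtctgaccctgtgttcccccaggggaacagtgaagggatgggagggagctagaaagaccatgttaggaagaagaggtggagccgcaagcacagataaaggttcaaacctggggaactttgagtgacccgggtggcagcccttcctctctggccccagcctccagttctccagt
Tnnt2: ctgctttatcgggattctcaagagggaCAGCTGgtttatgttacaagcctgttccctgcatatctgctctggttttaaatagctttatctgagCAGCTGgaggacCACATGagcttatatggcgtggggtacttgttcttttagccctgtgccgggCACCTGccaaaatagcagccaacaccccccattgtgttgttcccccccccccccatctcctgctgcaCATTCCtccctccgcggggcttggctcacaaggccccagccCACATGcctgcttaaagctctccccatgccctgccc
E-boxes, the letters bound by MyoD and its relatives, were present in all 11 windows, and also in 72.3% of all 32851 promoter windows. The MCAT element, the letters of the TEAD factors, was present in 3 of the 11 windows (those of Tnnc1 and Tpm1 and the 1 of Tnnt2 shown) and in 14.7% of all windows. In the window of Tnnt2 it did not overlap an E-box. The MEF2 element and the CArG box, searched by name on both strands, matched none of the 11 windows and 3.19% and 1.63% of all windows. These are matches of letters in short windows and no binding was measured.

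None of the 10 genes passed the threshold of 0.05 for the adjusted p (limma with Benjamini-Hochberg adjustment over all genes), against 0.254% of all genes tested, and their adjusted p ran from 0.130 to 0.880. At an unadjusted p under 0.05 there were 3 of 10, Tnni2, Tnnt1 and Tpm3, against 14.4% of all genes. In 3 of 10, Tnni2, Tnnt1 and Tnnt3, all the measured aged mice lay below all young mice, against 13.9% of all genes. The probes that represent Tnni2, Tnnt1 and Tpm3 lay in spot rows 383, 379 and 376 of 384. The arrays of aged mice 2 and 3 read low near that edge, and its part in these counts was not tested. The log2 fold change was below 0 in 9 of 10 genes, against 56.9% of all genes, with a median of -0.28 against -0.06, while no gene had all aged mice above all young mice (7.93% of all genes), and under quantile normalization the small differences of Tnnc2 and Tpm1 turned to the other side of 0. Bright genes are a closer comparison for the brighter members. Their median was -0.12 for mean levels from 6 to 8 and -0.16 above 8. The 10 genes were read by 19 probes of 1 spot each, and none of the 19 passed the threshold in the fit over probes, against 0.268% of all probes.

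**Figure D1:**
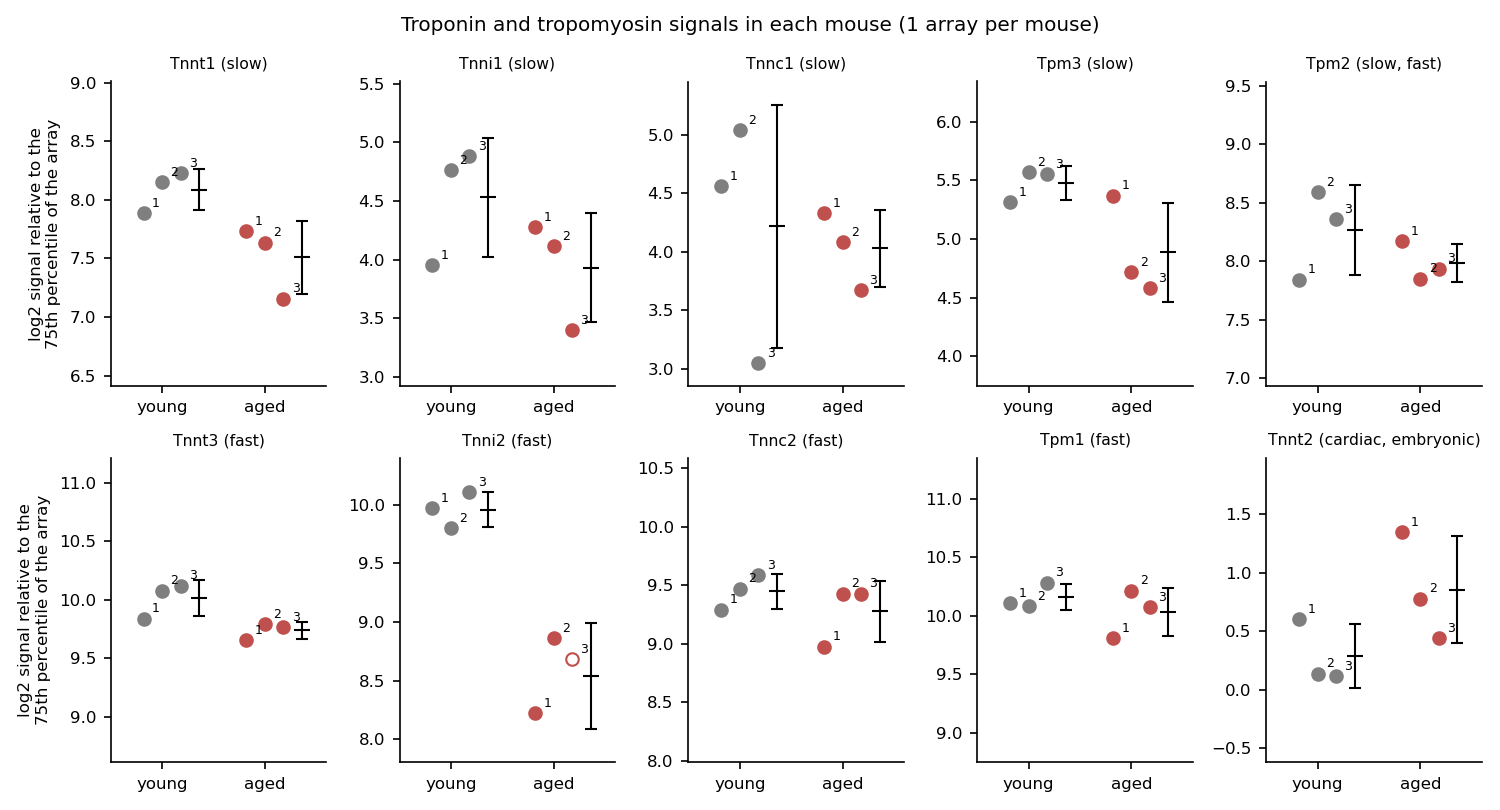
Log2 signal relative to the 75th percentile of the array (vertical axis, of the same height in every panel) of each gene in young (grey) and aged (red) mice, numbered by mouse, with mean and SD as bars and the Tnni2 spot that the scanner software marked as uneven as an open circle outside the mean. The aged mice lie below all young mice in the panels of Tnnt1, Tnnt3 and Tnni2.

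Tnnt1, the slow troponin T, was measured at 7.89, 8.15 and 8.23 in young mice 1 to 3 and at 7.73, 7.64 and 7.16 in aged mice 1 to 3. All aged mice were below all young mice, and aged mouse 3 was the lowest. The mean difference was 0.67-fold, a log2 fold change of -0.58 (SE 0.21, n = 3 per group, adjusted p = 0.298 by limma). A second probe designed on the same transcript (NM_001277903) read 4.40, 4.91 and 4.96 in young mice and 4.22, 4.43 and 3.81 in aged mice. Its log2 fold change of -0.61 (SE 0.24) was close to that of the first probe, although aged mouse 2 and young mouse 1 overlapped. The difference did not pass the threshold at either probe.

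Tnni1, the slow troponin I, read 3.95, 4.77 and 4.88 in young mice and 4.27, 4.11 and 3.40 in aged mice. Young mouse 1 lay among the aged mice, so the groups overlapped, with a log2 fold change of -0.61 (SE 0.34, adjusted p = 0.452, limma) that was -0.34 without aged mouse 3. Tnnc1, the troponin C of slow and cardiac muscle, read 4.56, 5.04 and 3.05 in young mice and 4.33, 4.08 and 3.68 in aged mice. Young mouse 3 was the lowest of all 6, and this gene had the largest spread within a group of the 10 genes (SD 1.04 in young mice). Its log2 fold change of -0.19 (SE 0.50, adjusted p = 0.880, limma) was smaller than its error, and without young mouse 2 it was 0.22.

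Tpm3, the tropomyosin of slow fibres, read 5.31, 5.57 and 5.55 in young mice and 5.37, 4.71 and 4.58 in aged mice. Aged mouse 1 lay among the young mice, while aged mice 2 and 3 were below them. The log2 fold change was -0.59 (SE 0.24, adjusted p = 0.336, limma). The gene also produces tropomyosins of the cytoskeleton of other cells from alternative exons, and its 3 probes did not move alike. The probe above and a second one carry the same transcript accession (NM_001293748), and the second read 3.75, 4.31 and 4.55 in young mice and 3.62, 3.30 and 2.96 in aged mice, all aged mice below all young mice, at -0.91 (SE 0.27). The third probe, with the accession NM_001253738, read 4.39, 4.42 and 4.44 in young mice and 4.38, 4.38 and 4.82 in aged mice, at 0.11 (SE 0.18). Which other transcripts each probe reads is not known from the files, and the difference between the probes was not tested.

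Tpm2, the tropomyosin of both fibre types, read 7.84, 8.59 and 8.36 in young mice and 8.17, 7.85 and 7.94 in aged mice. The groups overlapped at young mouse 1, with a log2 fold change of -0.28 (SE 0.23, adjusted p = 0.604, limma) that was -0.12 without young mouse 2. A second probe gave -0.26 (SE 0.17).

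Of the fast genes, Tnnt3, the fast troponin T, read 9.84, 10.08 and 10.12 in young mice and 9.66, 9.79 and 9.77 in aged mice. All aged mice were below all young mice by a small margin, and the log2 fold change was -0.27 (SE 0.16, adjusted p = 0.466, limma). Its second probe gave -0.15 (SE 0.19) with overlapping groups. Tnnc2, the fast troponin C, read 9.29, 9.47 and 9.59 in young mice and 8.98, 9.43 and 9.43 in aged mice, at -0.17 (SE 0.19, adjusted p = 0.704). Tpm1, the tropomyosin of fast fibres, read 10.11, 10.08 and 10.28 in young mice and 9.81, 10.21 and 10.07 in aged mice, at -0.12 (SE 0.17, adjusted p = 0.768). For both genes aged mouse 1 was the lowest of the 6 mice and aged mouse 2 lay among the young mice, as did aged mouse 3 for Tnnc2, while for Tpm1 aged mouse 3 was just below the lowest young mouse. The other 4 probes of Tpm1 gave log2 fold changes from -0.05 to 0.36, all with overlapping groups. Of these, 1 was designed on the same transcript as the probe above and the others on other transcripts. The probe on the same transcript read 8.86, 8.91 and 8.68 in young mice and 8.51, 9.30 and 9.21 in aged mice. Its log2 fold change of 0.19 (SE 0.25) was on the other side of 0.

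These fast genes were bright on the array, and bright genes as a class were lower on the array of aged mouse 1. Over the 408 genes with a mean above 8, the median deviation from the mean of young mice was -0.32, -0.03 and -0.10 in aged mice 1 to 3. Tnnt3, Tnnc2 and Tpm1 deviated by -0.36, -0.47 and -0.35 in aged mouse 1. The part of this class difference in the low values of the 3 genes was not tested.

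Tnni2, the fast troponin I, had the largest difference of the 10 genes. It read 9.97, 9.80 and 10.11 in young mice and 8.22 and 8.86 in aged mice 1 and 2, all aged values below all young values. On the array of aged mouse 3 its single spot was marked as uneven by the scanner software and was left out of the fit, and its value there was 8.68. The log2 fold change was -1.42, or 0.37-fold (SE 0.25, n = 3 young and 2 aged mice), with an unadjusted p of 0.0015 and an adjusted p of 0.130 (limma). With the marked spot kept, an alternative added after the data were seen, it was -1.37 with an adjusted p of 0.076. The intensity of the processed signal was 301043, 230827 and 230619 in young mice and 92653, 133201 and 111233 in aged mice. When the processed signal was replaced by the median pixel signal with normexp background correction, which leaves out the detrending of the scanner software, Tnni2 gave -1.67 (adjusted p = 0.036), and it was then the 1 member past the threshold. The array has 1 probe for Tnni2 (NM_009405), so no second probe could be set beside it.

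The Tnni2 probe lies at the edge of the array, in spot row 383 of 384 and column 153 of 164, and on the arrays of aged mice 2 and 3 the signal there was low for other genes too. In rows 383 and 384, 130 probes deviated from the mean of young mice by a median of -1.46 and -2.03 on these 2 arrays, but by -0.15 in aged mouse 1. The same 2 arrays were high at the opposite edge, at 0.89 and 0.92 over the 212 probes of rows 1 to 4. Over the 25573 probes of rows 17 to 368 the medians were -0.01 and -0.07. Among the other probes of row 383 alone, the median was -0.03, -1.21 and -1.44 in aged mice 1 to 3, whereas Tnni2 deviated by -1.74, -1.10 and -1.28. In aged mouse 2, and at the marked spot of aged mouse 3, the gene was no lower than the median of its row. It was lower than the medians of the 28 tested probes within 4 rows and 4 columns, -0.52 and -0.77, with 7 and 10 of the 28 lower still. These 28 are not a like comparison, since they include rows farther from the edge, where the drop was smaller. In rows 381 and 382 the medians were -0.68 and -0.89 in aged mice 2 and 3. In aged mouse 1 Tnni2 was lower than its row, whose 10th and 90th percentiles were -0.65 and 0.99. Of those 28 probes, whose median was -0.20, 1 lay lower still. Once the median trend over the spot rows was subtracted from each array, an alternative added after the data were seen, the log2 fold change of Tnni2 was -0.86 and its adjusted p 0.447. At row 383 this trend was -0.14 in aged mouse 1 and -0.98 in aged mouse 2, where Tnni2 deviated by -1.74 and -1.10. The difference that remained therefore lay mostly in aged mouse 1.

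**Figure D2:**
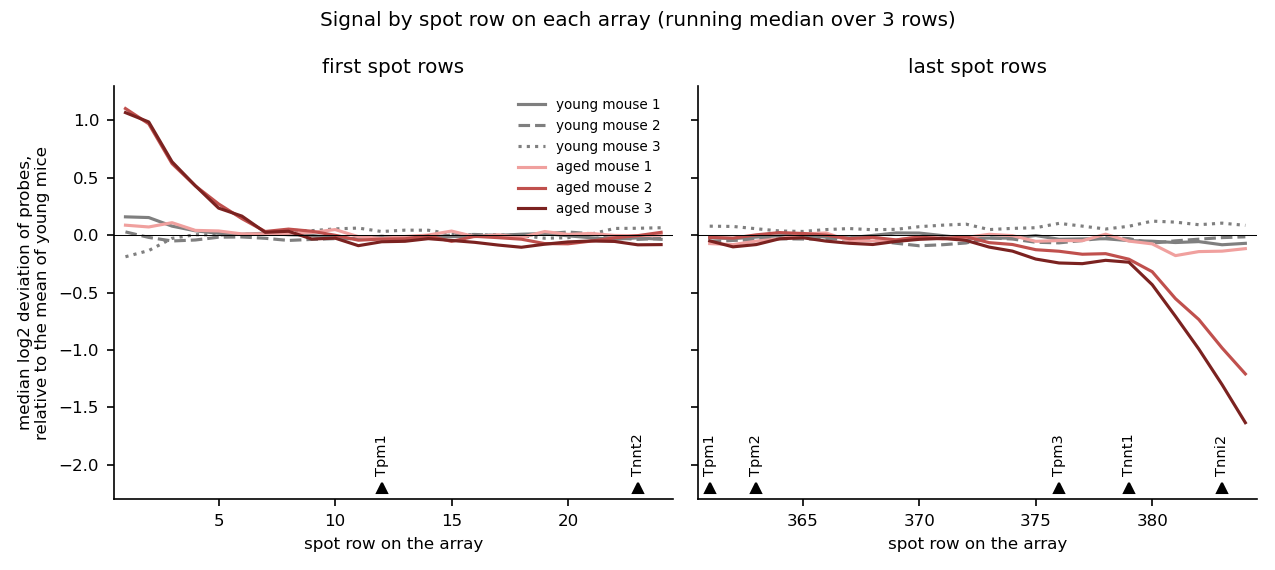
Median log2 deviation of the probes, set to 0 at the mean of young mice (vertical axis, running median over 3 spot rows) against the spot row (horizontal axis) for the first and the last rows of each array, with triangles at the rows of troponin and tropomyosin probes. The arrays of aged mice 2 and 3 rise at the first rows and drop at the last rows, where the Tnni2 probe lies, while the other 4 arrays stay near 0.

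The trend was smaller but still present at the spots of Tnnt1 and Tpm3, in rows 379 and 376. With the trend subtracted their log2 fold changes were -0.41 (adjusted p = 0.378) and -0.45 (adjusted p = 0.404). The second Tnnt1 probe, in row 207, was at -0.55 after the same step. For the remaining 7 genes the step moved the log2 fold change by at most 0.10. The 2 arrays with the trend were also those in row 2 of the slide, while all young mice and aged mouse 1 were in row 1. Within row 1, where aged mouse 1 could be set against the 3 young mice, the log2 fold change was -0.36 for Tnnt1 (adjusted p = 0.627), -0.11 for Tpm3 (adjusted p = 0.855) and -0.26 for Tnni1 (adjusted p = 0.831). It was -1.74 for Tnni2 (adjusted p = 0.118). Age and slide row cannot be told apart in aged mice 2 and 3.

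**Figure D3:**
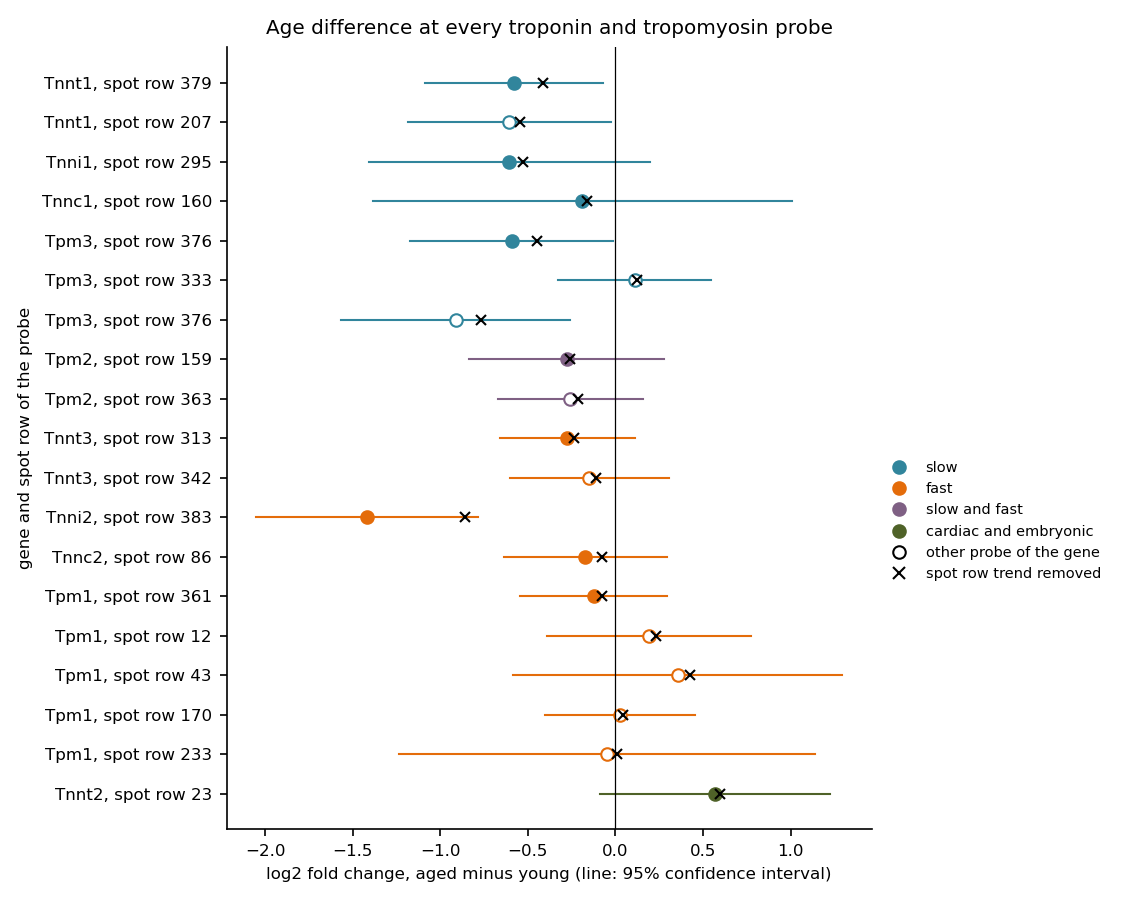
Log2 fold change of aged over young mice (horizontal axis) at all 19 probes, listed by gene and spot row, with 95% confidence intervals as lines, filled circles for the probe that represents a gene, open circles for its other probes and crosses for the value with the spot row trend removed. Tnni2 in row 383 moves most when the trend is removed, from -1.42 to -0.86.

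Tnnt2, the cardiac troponin T that is also made in embryonic skeletal muscle, was the 1 gene above 0. It read 0.60, 0.14 and 0.12 in young mice and 1.35, 0.78 and 0.44 in aged mice, and was well above background on all 6 arrays. Aged mouse 1 was the highest, and aged mouse 3 lay below young mouse 1. The log2 fold change was 0.57, or 1.48-fold (SE 0.27, adjusted p = 0.400, limma), and 0.32 on the log2 scale without aged mouse 1. Tnni3, the cardiac troponin I, was well above background on 1 array of a young mouse and 2 of aged mice, at 0.78 (SE 0.50, adjusted p = 0.510). Of 7 heart markers, 4 (Nppb, Myl7, Mybpc3 and Ryr2) were well above background on too few arrays to be tested. Tpm4, the cytoskeletal tropomyosin outside the list, was at -0.11 (SE 0.19, adjusted p = 0.815).

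Slow and fast genes were set against each other within each array, as the log2 signal of the slow gene minus that of the fast gene, and its mean compared between ages by an exact two-sided permutation test. With 3 mice against 3 the smallest p this test can give is 0.10. For troponin T, Tnnt1 minus Tnnt3 was -1.95, -1.93 and -1.90 in young mice and -1.93, -2.16 and -2.61 in aged mice. The young mice were within 0.06 of one another, aged mouse 1 was at their level and aged mice 2 and 3 were lower, a change of -0.31 (exact permutation p = 0.3, adjusted over the 4 pairs 0.533). It was -0.18 with the spot row trend removed (exact permutation p = 0.5) and -0.12 without aged mouse 3. For tropomyosin, Tpm3 minus Tpm1 changed by -0.47 (exact permutation p = 0.4, adjusted 0.533). Relative to the mean of young mice, the young mice were at -0.12, 0.17 and -0.05. Aged mouse 1 was above all of them at 0.24, and aged mice 2 and 3 were at -0.82 each. The change was -0.29 without either of the last 2 mice, -0.82 without aged mouse 1, and -0.37 with the spot row trend removed. For troponin C the change was -0.02 (exact permutation p = 1.0). Troponin I went the other way, with Tnni1 minus Tnni2 at -6.02, -5.04 and -5.22 in young mice and -3.95 and -4.75 in aged mice 1 and 2. Both aged values were above all young values, by 1.08 on average, which is the smallest exact permutation p that 3 mice against 2 can give (0.1, adjusted 0.400). With the marked spot of aged mouse 3 kept the change was 0.77 (exact permutation p = 0.3), and with the spot row trend removed it was 0.56 (exact permutation p = 0.6). The 4 pairs thus gave no common direction, and the largest one rests on the Tnni2 probe at the edge of the array.

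**Figure D4:**
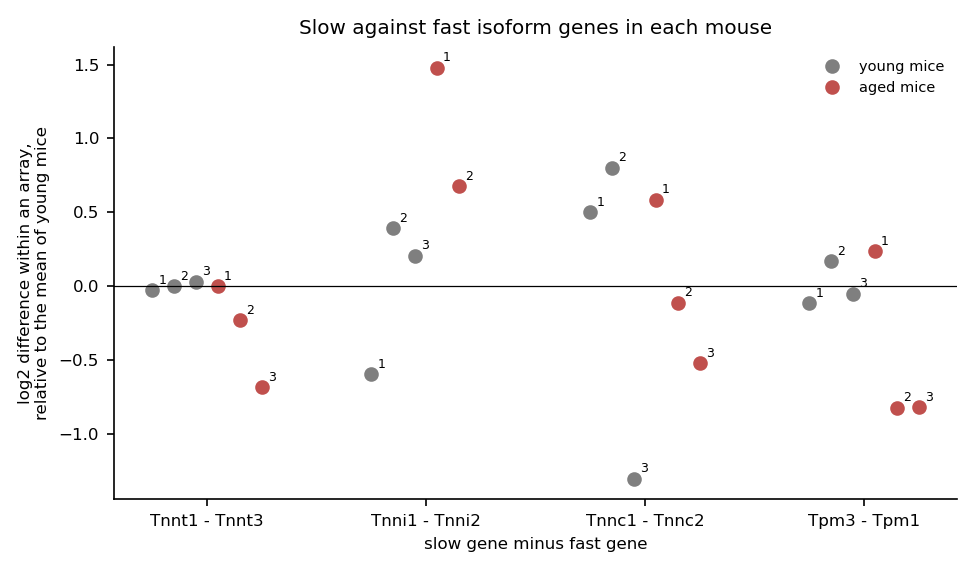
Slow minus fast log2 signal within each array, relative to the mean of young mice (vertical axis), for the 4 pairs of genes (horizontal axis), young mice in grey and aged mice in red, numbered by mouse. Aged mice 2 and 3 lie below 0 for troponin T, troponin C and tropomyosin, and for troponin I both measured aged mice lie above all young mice.

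Taken by role, the 4 slow genes had a median log2 fold change of -0.59, all 4 below 0. Their median deviation from the mean of young mice was -0.18, -0.44 and -0.92 in aged mice 1 to 3, and -0.18, 0.16 and 0.11 in young mice 1 to 3. All 4 slow genes were below the mean of young mice in aged mice 2 and 3, and 3 of 4 in aged mouse 1 and also in young mouse 1. The 3 fast genes other than Tnni2 had a median of -0.17, with -0.36, -0.02 and -0.08 in aged mice 1 to 3. So aged mouse 3 was the lowest for the slow genes and aged mouse 1 for the fast genes. The difference between the 2 roles was tested only by the pairs above.

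For each member the nearest other member was found by the root mean square difference of centred log2 values over the 6 arrays. Tnnc2 and Tpm1 were nearest to each other at 0.09, and Tnnt3 was nearest to Tnnc2 at 0.12, all of them fast genes. Tnnt1 and Tpm3 were nearest to each other at 0.17, and Tnni1 was nearest to Tnnt1 at 0.21, all of them slow genes. Tpm2, of both fibre types, was nearest to Tnnt3 at 0.20. The spot row trend was left in these values. At rows 379 and 376, those of Tnnt1 and Tpm3, it was -0.21 and -0.14 in aged mouse 2, and -0.24 at both in aged mouse 3. Tnnt3, Tnnc2 and Tpm1 are bright genes, a class that was lower in aged mouse 1. The part of both in this nearness was not tested. The other 3 genes had no near member, with Tnnt2 nearest to Tpm1 at 0.54, Tnni2 to the slow gene Tnnt1 at 0.57 over 5 arrays, and Tnnc1 to Tpm2 at 0.66. Over those 5 arrays the 5 genes most like Tnni2, among 12671 genes well above background on all arrays, were Cfap52, Ssc5d, Kcng4, Olfr1466 and Olfr78, at 0.12 to 0.18, read from spot rows 74 to 348. For Tnnt1, chosen for this after its values were seen, they were Ezh2, Tjp1, Soga1, Fcgrt and Mospd3, at 0.04 to 0.06.

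Other genes of the sarcomere were counted beside the members, and none of the genes in the 6 lists that follow passed the threshold. Of 18 further genes of the thin filament and its assembly, 9 were above and 9 below 0, with a median log2 fold change of 0.03. The largest differences were those of Xirp1 at 1.95 and Klhl40 at 1.39, which encode a repair protein of the actin filament and a stabiliser of thin filament proteins, and of Klhl41 at 0.60. Of 12 other slow fibre genes, 8 were below 0 (median -0.17), with Csrp3 at 1.20, which was 0.44 without aged mouse 1, Myh7b at -0.88 and Atp2a2, the slow calcium pump, at -0.74. Of 13 other fast fibre genes, 11 were below 0 (median -0.17), with Mylpf, the fast regulatory light chain, at 1.29, Mylk2 at -0.72 and Myh1 at -0.33. The value of Mylpf rested on young mouse 3, which read 1.96 while the other 5 mice were between 4.52 and 5.20, and without that mouse it was 0.36. The median of the slow members, -0.59, was further from 0 than that of the other slow fibre genes, and this difference was not tested. Of the latter, Myh7b, Atp2a2 and Myh7 (-0.66) were lower than -0.59, while 4 were above 0. With the spot row trend removed the slow members Tnnt1 and Tpm3 were at -0.41 and -0.45.

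Genes of embryonic and denervated muscle stood on the side of Tnnt2. Of 13, 11 were above 0 with a median of 1.20, 9 had an unadjusted p under 0.05 (14.4% of all genes did), and none passed the threshold. Both counts include Chrng, which was well above background in every aged mouse but in no young mouse. It met the filter on dim probes through the aged mice alone. Its log2 fold change of 1.78 therefore rests on young values that were not well above background. The largest were Runx1 at 2.75 and Gadd45a at 2.59 (adjusted p = 0.067 each, limma) and Myog at 2.47 (adjusted p = 0.149, and 0.036 without aged mouse 1). Of 17 regulators of fibre type, 13 were below 0 (median -0.09), and the largest were Tead4, a factor that reads the MCAT element, at 0.95 (adjusted p = 0.301, and 0.049 without aged mouse 1), Vgll2 at -0.63 (-0.26 without aged mouse 3) and Hdac4 at 0.54. Of 10 splicing regulators of troponin T and tropomyosin transcripts, 6 were above 0 (median 0.07), with Mbnl1 at -0.57, Mbnl2 at 0.47 and Celf1 at 0.47, the last of which lay between 0.08 and 0.90 when 1 mouse was left out. Actc1 is counted in the thin filament and in the embryonic list, and Actn3 in the thin filament and in the fast fibre list.

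**Figure D5:**
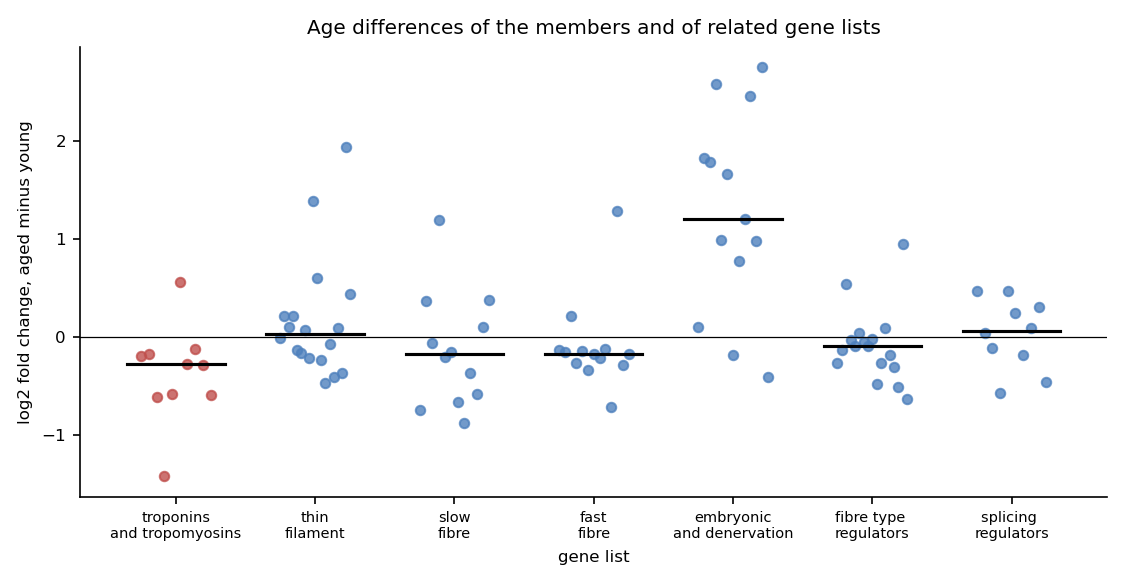
Log2 fold change of aged over young mice (vertical axis) of each tested gene in the members (red) and 6 related lists (blue), with the median of each list as a bar. The members range from -1.42 (Tnni2) to 0.57 (Tnnt2), and the list of embryonic and denervation genes has its median at 1.20.

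The label of skeletal muscle was checked against its markers, of which all 8 were tested, and the log2 of their summed signal was 11.83 to 12.05 in young and 11.59 to 11.97 in aged mice. Markers of some other cells had ranges that did not overlap between the ages in the same measure, in which the brightest marker weighs most. Among all genes taken singly, 13.9% had all aged mice below all young mice and 7.93% all above. All 6 fibroblast markers had a log2 fold change below 0, and their summed level was 8.77 to 8.92 in young and 7.56 to 8.41 in aged mice. All 4 tested erythrocyte markers were below 0 too, with 9.31 to 9.85 and 8.17 to 8.84. For 5 endothelium markers, 3 of them below 0, the ranges were 4.94 to 5.10 and 4.38 to 4.88. The 4 adipocyte markers, all below 0, were at 7.082 to 7.21 and 6.71 to 7.078, and the 3 satellite cell markers, 1 of them below 0, at 3.89 to 3.918 and 3.927 to 4.12, so that these ranges only just missed each other. They overlapped for 5 macrophage markers (4 above 0, 4.24 to 4.39 in young and 4.38 to 4.71 in aged mice) and 6 Schwann cell markers (4.22 to 5.23 and 4.39 to 5.23), of which 4 were below 0 and Prx, a myelin protein, passed the threshold at -1.29. They also overlapped for 6 smooth muscle markers (4 below 0, 6.23 to 6.92 and 6.11 to 6.34) and 3 heart markers (1 below 0, -0.23 to 1.16 and -0.01 to 0.15). Taken singly the markers gave another picture than the sums. Of the 5 macrophage markers, 4 had all aged mice above all young mice. Of the 6 Schwann cell markers, 4 had all aged mice below all young mice and 1 above, with a median log2 fold change of -0.76. Only 1 of the 4 adipocyte markers had all aged mice below all young mice. The part of these cells in the differences of the troponins and tropomyosins was not tested.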

How the data were processed

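Each of the 6 deposited files was scanner output of Agilent Feature Extraction (version 11.0.1.1 per the file headers, 9.5 per the submitters' processing notes) from an array designed on mm9. The value used was the processed signal, an intensity on a linear scale which the authors' software had background-subtracted and detrended but not scaled to other arrays. Values of the series matrix were identical to it. Of 62976 spots per array, 59305 were not controls, and no probe was saturated. On each array 48.7% to 53.8% of probes exceeded background clearly, and 75th percentiles of the signal over probes were 209 to 310. The number of arrays limits the precision.

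Spots marked as outliers (161 to 212 per array) were left out, log2 signals of a probe averaged, and each array centred on its 75th percentile. A probe was kept when well above background on at least 3 of 6 arrays and measured on at least 2 arrays per group. Symbols came from RefSeq accessions (28324 of 55680 probes). The kept probe with the highest mean represented a gene. The age groups were tested by lmFit and eBayes of limma 3.58.1 under R 4.3.3 (Benjamini-Hochberg, threshold 0.05), after a check on simulated data. Intervals in the plot of probes are from the fit over 28009 probes. Pairs of slow and fast genes were compared by exact permutation. The 6 arrays were on 1 slide and read in 1 scan.

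The members, lists and tests were chosen with earlier results of these data known. Named are the members, Tnni3 and Tpm4, and of each other list the genes past the threshold and the 3 with the largest difference among those well above background on all arrays. Myh7 and Chrng are named besides, after their values were seen. For marker lists only counts and summed levels are given, apart from Prx. The summed level of a list is the log2 of the sum of its scaled linear signals. The alternatives were normexp on the median pixel signal (offset 50), quantile or median scaling, the percentile over detected probes, other filters on dim probes, the mean of all probes, probes in place of genes, a mean-variance trend, the series matrix values, the slide row or the replicate number as a block, leaving out each mouse, and, added after the data were seen, marked spots kept and the spot row trend removed. Metabolite and RT-PCR measurements were not analysed here.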

Additional observations from a re-analysis of the deposited data

How the results depend on the processing

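The count of members past the threshold was 0 under every alternative except normexp, where it was 1 (Tnni2, -1.67, adjusted p = 0.036). That fit used signals without the detrending of the scanner software and with the spot row trend left in. Over all alternatives with 1 value per gene the log2 fold change kept its direction for Tnnt1 (-0.76 to -0.36), Tnni1 (-0.90 to -0.26), Tpm3 (-0.83 to -0.11), Tpm2 (-0.49 to -0.10), Tnnt3 (-0.42 to -0.12), Tnni2 (-1.74 to -0.86) and Tnnt2 (0.32 to 1.06). With probes in place of genes Tpm3 did not keep its direction, since its probes ran from -0.91 to 0.11. The value of -0.86 for Tnni2 was that with the spot row trend removed, and it lay mostly in aged mouse 1. With the filter for detection on all 6 arrays Tnni2 gave no value, since 1 array was missing. Under quantile normalization Tnnc2 was 0.012, Tpm1 0.062 and the fast fibre list's median 7.19e-05. Tpm1 was 0.080 as the mean of all probes. With the slide row as a block Tnnc1 was 0.11, the pair changes were 0.00033 (troponin T), 0.58 (troponin C) and 0.24 (tropomyosin), Celf1 was -0.39 and Vgll2 0.21. Leaving out 1 mouse at a time gave -0.77 to 0.22 for Tnnc1 (0.22 without young mouse 2) and -0.67 to 0.38 for the troponin C pair, and -0.20 to 0.022 for Tpm4 (0.022 without young mouse 3). Gadd45a passed the threshold with normexp and with the mean-variance trend (adjusted p = 0.045 each), and Runx1 with the trend (0.048). The cause of these was not tested. Over all genes 53 were called, but 1 without aged mouse 3 and 203 without aged mouse 1. Scaling to the median moved the median of all genes from -0.06 to -0.21. Mice of the same number did not deviate together (correlations -0.06, -0.27 and 0.03). With so few mice this cannot exclude a pairing, and the labels give none. With the replicate block the count of members was 0, Tnni2 was -1.35 (adjusted p = 0.310) and 5 genes in all were called.

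Limits are few mice, 1 spot per probe, a scale on which a general shift would be removed, and, for Tnni2, a single probe at the edge of arrays whose edge rows differed.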
